A study of Sus scrofa with 30 samples.

Results

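The miR-15, miR-16, miR-195 and miR-497 family was followed in plasma of lethally irradiated Göttingen minipigs (GMPs). Its members were taken as every row of the deposited miRNA table whose number is that of miR-15, miR-16, miR-195 or miR-497 and no longer number, whatever letter follows it. The rule took 5 rows of the table and left 406 others. The 5 were ssc-miR-15a, ssc-miR-15b, ssc-miR-16, ssc-miR-195 and ssc-miR-497. Libraries summing to under 1000 counts were left out by the same rule. All 5 members passed the filter on low counts, as did the 406 other rows.

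Plasma small RNA was sequenced from 3 male GMPs about 4 months old, and each animal gave 1 library on each of 10 occasions. All 3 animals received a 2.2 Gy total body irradiation (TBI), so the pre-TBI libraries of the same animals, drawn on days -7 (C7) and -1 (C1), are the controls and no unirradiated animal was followed. The later libraries formed 4 phases, which the study drew from these same libraries. Early covered 0d, which was 6 h after TBI, with 1d, 3d and 7d. Mid covered 10d with 14d, while Late was 17d alone and LR was 20d alone. All 3 animals also received subcutaneous 5% dextrose on days 1 and 8, as the control group of a test of a radiation countermeasure. Oral antibiotics were given when neutrophils were very low. Time since TBI, anaesthesia for the irradiation, growth of the animal, repeated bleeding, the dextrose and the antibiotics cannot be told apart in this design.

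Of the 30 libraries, 24 were kept: 6 pre-TBI, 10 Early, 4 Mid, 2 Late and 2 LR. The 6 libraries left out were those of minipig 3 from 3d to 20d, which held 0 to 17 counts each and no count of any member, so Mid, Late and LR rest on minipigs 1 and 2. Kept totals ran from 24341 to 423325 counts pre-TBI, 172339 to 524084 at Early, 35762 to 103083 at Mid, 29159 and 63441 at Late, and 401408 and 550316 at LR. Late and Mid were thus the shallow phases, and C7 of minipig 1 was the shallowest library of all.

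The family is a textbook case of miRNAs that act through 1 shared seed, the bases at the 5′ end of the mature strand that pair with target messages. Its targets include cyclins and other drivers of the cell cycle and the survival factor BCL2, and it is known for holding cells out of division. Among its members, miR-15a and miR-16 are known for being lost in chronic lymphocytic leukaemia. In blood, miR-16 is abundant in red cells and is widely used as a reference in plasma assays, although rupture of red cells adds to it. The seed that defines the family is shown because it is the feature the members share beyond their numbers, and it was read from the study's supplementary listing for miR-16-5p, with all 7 bases in capitals as the seed.

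miR-16-5p seed: AGCAGCA

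The members come from linked pairs of hairpin genes. In the RefSeq annotation of assembly Sscrofa11.1, used here for names and neighbours only, MIR15A lies next to MIR16-2, and MIR15B lies next to MIR16-1 with both inside the span of SMC4, a condensin subunit gene. MIR195 and MIR497 both overlap the long non-coding gene LOC102161115. Both MIR16 genes feed the 1 row named ssc-miR-16, so that row pools the partners of ssc-miR-15a and of ssc-miR-15b.

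The family held 33004 counts over the 24 libraries, of which ssc-miR-16 made up 80.3%, ssc-miR-497 8.48%, ssc-miR-15a 6.27%, ssc-miR-195 2.55% and ssc-miR-15b 2.45%. These shares pool the libraries, so deep ones weigh more: the mean share of ssc-miR-16 per library was lower in every phase, from 33.1% at Late to 77.3% at Early. Adapter ligation and PCR differ between small RNAs, so all are shares of sequenced counts. Levels below are log2 CPM, the log2 of library-scaled counts (CPM) after scaling by the trimmed mean of M values (TMM), with a prior count of 2. By median rank within a library ssc-miR-16 stood at 105.5, counted from the most abundant row, against 218 for ssc-miR-497, 297.5 for ssc-miR-15a, 339.5 for ssc-miR-195 and 344 for ssc-miR-15b. The family was therefore 1 moderately abundant row and 4 scarce ones, and the scarce members fell to between 4 and 9 counts in their poorest libraries.

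**Figure D1:**
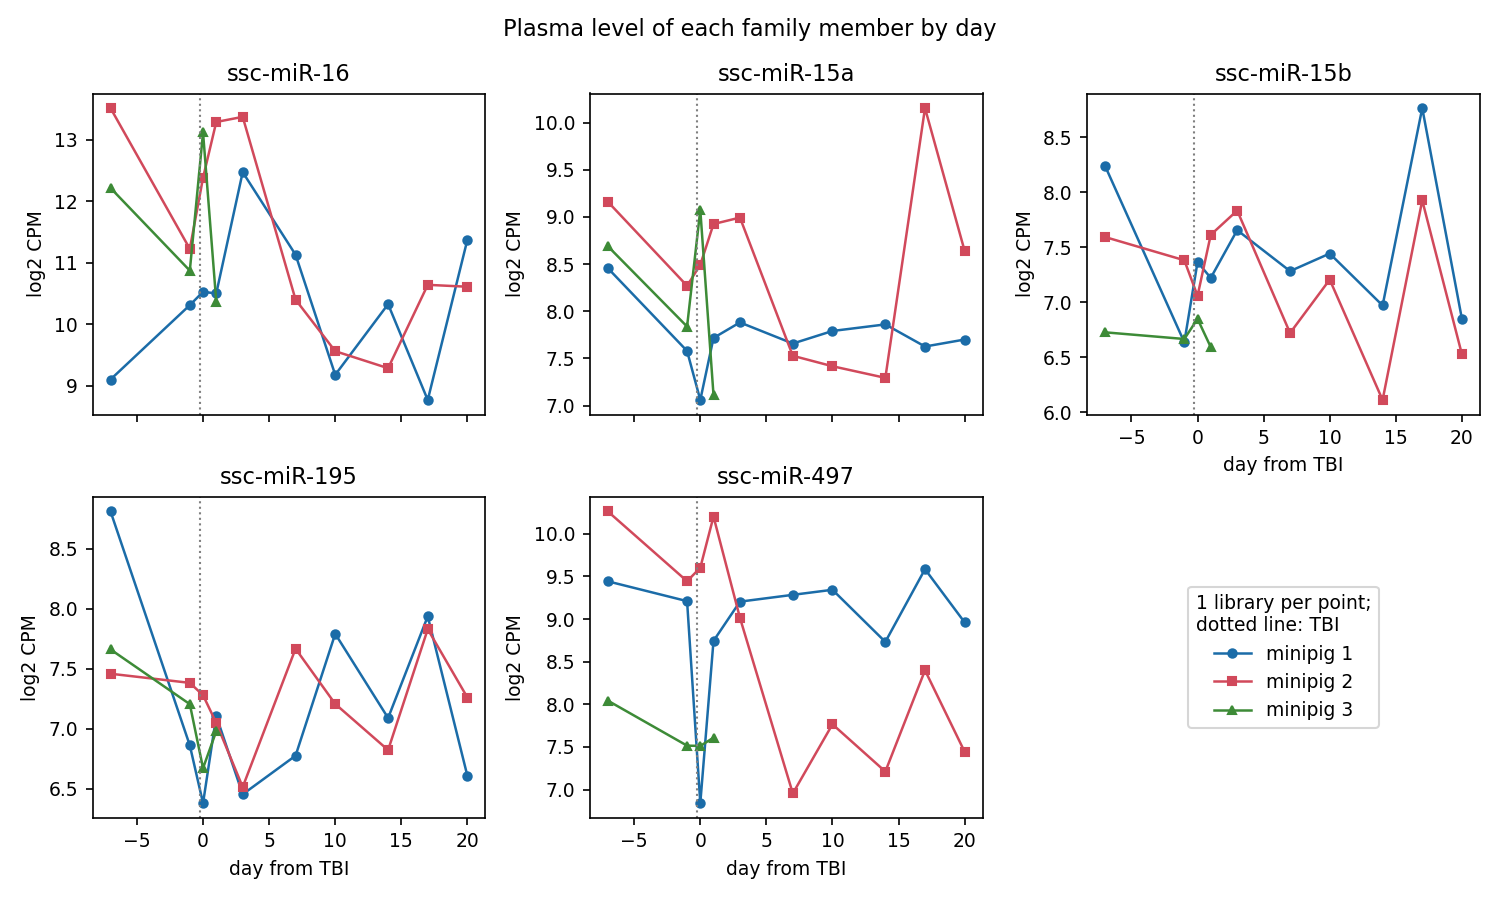
Level (log2 CPM, vertical axis, a separate range in each panel) of each member by day from TBI, with 1 point per library, 1 line per minipig and a dotted line at TBI. The line of ssc-miR-16 covers 8.77 to 13.51, while that of ssc-miR-195 covers 6.38 to 8.81, and minipig 3 has no kept library after 1d.

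In the fit without a term for the animal, no member passed an adjusted p under 0.05 in any comparison by edgeR's quasi-likelihood test with Benjamini-Hochberg adjustment over every row of the table. With that term 1 did, ssc-miR-15b from Late to LR. Each phase was set against pre-TBI in 1 fit, and each standard error (SE) is the fitted log2 change over the root of the F statistic. At an unadjusted p under 0.05, 1 of 5 members was past the threshold at Early (ssc-miR-195, lower), 1 at Mid (ssc-miR-16, lower), 1 at Late (ssc-miR-15b, higher) and 0 at LR. With the minipig as a replicate block ssc-miR-15b was past it at LR too, at -0.79 with an unadjusted p of 0.0443 and an adjusted p of 0.372. Other members came past it in 1 to 3 of 18 alternatives each: ssc-miR-15a at Mid in 1 and at Late in 2, ssc-miR-16 at Late in 3, and ssc-miR-195 at Mid in 1 and at LR in 1, none with an adjusted p under 0.05. By DESeq2 no member passed the adjusted threshold against pre-TBI either. Over all rows the share past an adjusted p under 0.05 was 0% at Early, 0% at Mid, 4.38% at Late, while LR gave 0%, and the share past an unadjusted p under 0.05 was 18.7% at Early, 5.35% at Mid, 22.6% at Late, while LR gave 5.60%. With 5 members, 1 member is 20% of the list, which is close to the background at Early and Late.

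No member's libraries lay wholly outside its pre-TBI range in any phase. The same held for all but 0.243% of rows at Early, 1.46% at Mid, 10.9% at Late, and for LR 9.25%. The median log2 fold change of the 5 members was -0.20 at Early, -0.78 at Mid, 0.35 at Late, and for LR -0.58, beside 0.02, 0.05, 0.08 and -0.01 over all rows. All 5 members had negative fold changes at Mid and at LR in this fit, but some were positive under an alternative. At Mid these were ssc-miR-497 without minipig 2, ssc-miR-15b without minipig 2 or with counts thinned to 1 depth, and ssc-miR-195 with C1 alone as the baseline. At LR they were ssc-miR-16 without minipig 2 or with C1 alone, ssc-miR-497 without minipig 2, and ssc-miR-15a without minipig 1, with C1 alone or with thinned counts.

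**Figure D2:**
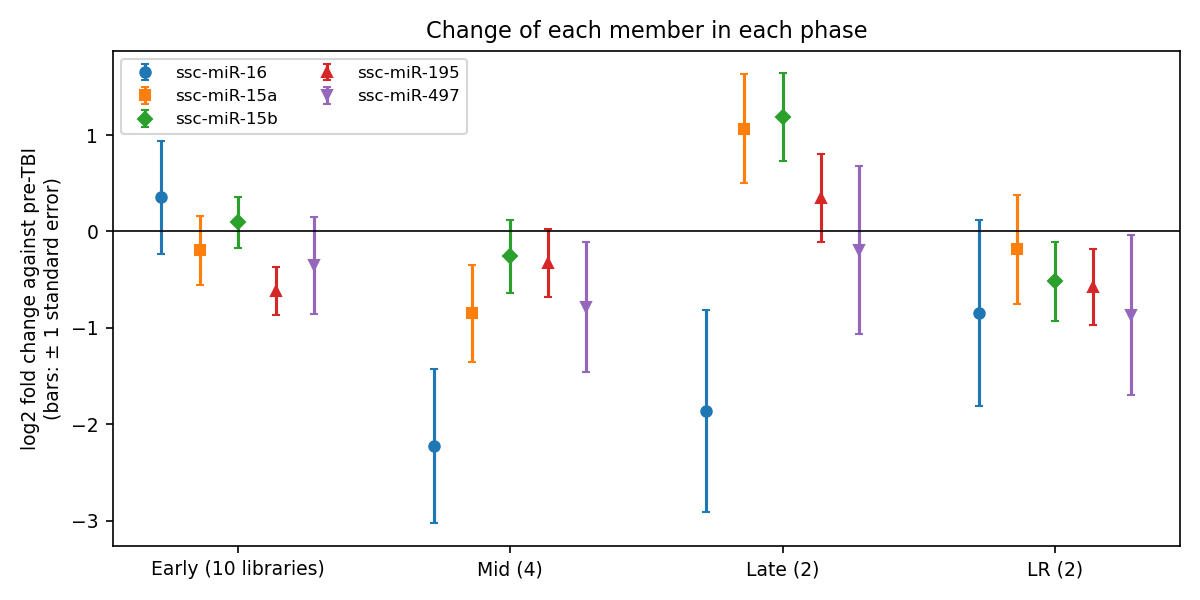
Log2 fold change of each member against pre-TBI (vertical axis, bars are 1 standard error either side) in each phase (horizontal axis, with the number of libraries). At Mid all 5 symbols lie below 0, with ssc-miR-16 at -2.23, and at Late ssc-miR-16 lies at -1.86 while ssc-miR-15b lies at 1.19.

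The most abundant member, ssc-miR-16, had its lowest phase mean at Mid, 9.58 ± 0.52 log2 CPM (SD, n = 4), within the spread of that at Late, 9.70 ± 1.32 (n = 2). Its pre-TBI libraries ran from 9.10 to 13.51 log2 CPM with a median of 11.05. At Early they ran from 10.37 to 13.37 with a median of 11.75, and at Mid they were 9.17 and 10.32 in minipig 1 and 9.56 and 9.28 in minipig 2 at 10d and 14d. The 4 Mid libraries lay at the low end of the pre-TBI range and all 4 lay inside it, because C7 of minipig 1 was lower still.

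At Late ssc-miR-16 stood at 8.77 in minipig 1 (9 counts) and 10.64 in minipig 2 (101 counts), and at LR at 11.37 and 10.61. Minipig 1 at 17d was thus below every pre-TBI library, and both LR libraries were back inside the range. Against pre-TBI the log2 fold change was 0.36 (SE 0.58) at Early, -2.23 (SE 0.80) at Mid, -1.86 (SE 1.05) at Late and -0.85 (SE 0.96) at LR. The unadjusted p at Mid was 0.0104 and the adjusted p by edgeR was 0.808.

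The 2 animals with Mid libraries did not move alike against their own pre-TBI mean. In minipig 2 the Mid mean of ssc-miR-16 was lower by 2.95 log2 CPM, and in minipig 1 it was higher by 0.05. The sign in minipig 1 rests on C7, at 9.10 (11 counts), since C1 was at 10.31 and the Mid libraries at 9.17 and 10.32. At Late both were lower, with -0.94 in minipig 1 and -1.73 in minipig 2. At LR the animals went opposite ways, with 1.67 in minipig 1 and -1.76 in minipig 2, and without minipig 2 the LR fold change was 0.084. Without minipig 2 the Mid fold change was -1.21 with an unadjusted p of 0.243, and with C1 alone as the baseline it was -1.19 with an unadjusted p of 0.120. Without the C7 library of minipig 1 it was -2.46 with an unadjusted p of 0.00589.

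The spread of ssc-miR-16 before TBI was as wide as its later course. From C7 to C1 it went from 13.51 to 11.22 in minipig 2 and from 12.21 to 10.87 in minipig 3, but from 9.10 to 10.31 in minipig 1. The C7 library of minipig 1 held 11 counts of ssc-miR-16 among 24341, a share of 0.0452%, whereas that of minipig 2 held 2710 among 226891, or 1.19%. Over time points the order of the mean levels ran 3d (12.92), 0d (12.01), C7 (11.61), 1d (11.38), 20d (10.99), C1 (10.80), 7d (10.76), 14d (9.80), 17d (9.70) and 10d (9.37). Only the step from 7d to 14d, of 0.96, was larger than the pooled SD of the neighbouring pair, 0.64, so every other pair of neighbours in that order did not differ beyond the spread.

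ssc-miR-16 varied together with the red cell miRNAs. Fixed red cell markers were ssc-miR-451, ssc-miR-144 and ssc-miR-486, and the row most like ssc-miR-16 among the other 410 was ssc-miR-451, with a Pearson correlation of log2 CPM of 0.90 (Spearman 0.86) over 24 libraries. It was 0.87 without the 2 libraries farthest from the median of ssc-miR-16 and 0.90 on deviations from each minipig's own mean. These 24 points share 3 animals, their libraries and the scaling, so the value is a description. The correlations with ssc-miR-144 and ssc-miR-486 were 0.86 and 0.78, and with the log2 library total 0.69.

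The counts show the same in single libraries. ssc-miR-16 and ssc-miR-451 stood at 2710 and 2229 counts at C7 in minipig 2, 3958 and 3947 at 0d in minipig 3, 532 and 312 at 1d in minipig 3, and 24 and 20 at 10d in minipig 1. The log2 ratio of ssc-miR-16 to ssc-miR-451, from counts plus 0.5, averaged 0.37 ± 0.27 (SD, n = 6) pre-TBI, 0.67 ± 0.33 (n = 10) at Early, 0.49 ± 0.19 (n = 4) at Mid and 0.51 ± 0.53 (n = 2) at LR. The mean ratio thus lay between 0.37 and 0.67 in these phases, where the mean level of ssc-miR-16 lay between 9.58 and 11.75 log2 CPM. Late was the exception, with -0.88 in minipig 1 (9 against 17 counts) and 3.02 in minipig 2 (101 against 12 counts).

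**Figure D3:**
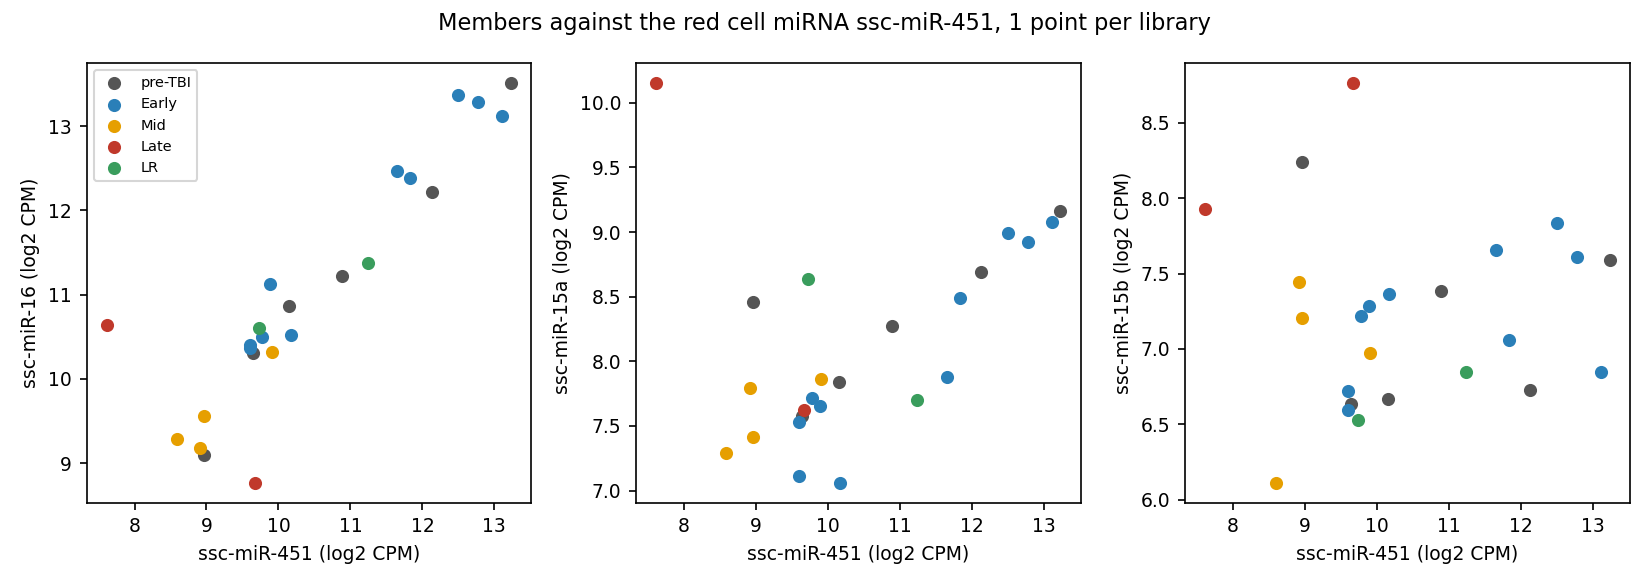
Level of ssc-miR-16, ssc-miR-15a and ssc-miR-15b (vertical axes, log2 CPM) against that of ssc-miR-451 (horizontal axis, log2 CPM), with 1 point per library coloured by phase. ssc-miR-16 follows ssc-miR-451 over most libraries (Pearson 0.90), ssc-miR-15a less closely (0.36), and ssc-miR-15b does not (0.03). The Late library of minipig 2 sits apart at the far left of each panel.

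No red cell row passed the adjusted threshold, and the 2 animals with later libraries differed. The fitted change of ssc-miR-451 was -2.42 (SE 0.89) at Mid and -2.74 (SE 1.26) at Late, that of ssc-miR-144 was -1.50 and -1.61, and that of ssc-miR-486 was -0.80 and -1.65. Against its own pre-TBI mean, ssc-miR-451 was at 0.11 at Mid and 0.37 at Late in minipig 1, and at -3.28 and -4.44 in minipig 2. ssc-miR-144 was likewise at 0.92 and 0.94 in minipig 1 and at -2.45 and -2.50 in minipig 2. Against each animal's own pre-TBI mean, ssc-miR-451 and ssc-miR-144 were thus lower in minipig 2 only, while ssc-miR-486 was lower in both animals. The pre-TBI mean of minipig 1 includes C7, with 10 counts of ssc-miR-451 and 1 of ssc-miR-144, and its 17d library held 17 and 3. At C1 minipig 1 stood at 9.65 log2 CPM for ssc-miR-451, beside 8.92 and 9.91 at Mid. For ssc-miR-144 it stood at 6.75 at C1, beside 7.44 and 6.97 at Mid. The fits are against pooled pre-TBI libraries that also hold minipig 3, which has no Mid or Late library. Past an unadjusted p under 0.05, 1 of the 3 was lower at Mid (5.35% of all rows were past it) and 1 of the 3 at Late (22.6%), and 0 of 3 passed the adjusted threshold in any phase by edgeR. Their summed share of counts ran from 1.02% to 9.02% pre-TBI, 0.827% to 7.06% at Early, 0.909% to 2.93% at Mid, 0.604% to 1.02% at Late and 1.31% to 1.67% at LR, and none of the 3 was at 0 in any kept library. The log2 ratio of ssc-miR-451 to ssc-miR-23a, a usual index of red cell rupture in plasma, averaged 1.12 ± 1.73 (SD, n = 6) pre-TBI, 1.29 ± 1.47 (n = 10) at Early, -0.74 ± 0.68 (n = 4) at Mid, -0.86 ± 0.80 (n = 2) at Late and 0.88 ± 1.19 (n = 2) at LR. In minipig 1 its mean was -0.57 pre-TBI and -0.61 at Mid, in minipig 2 it was 2.28 and -0.88, and in minipig 3 it was 1.66 pre-TBI with no Mid library. Its correlation with the level of ssc-miR-16 was 0.91 over the 24 libraries. Among the other fixed lists of cell markers at Mid, the 2 myeloid and blood cell rows had a median log2 fold change of -1.23. Of these 1 was lower at an unadjusted p under 0.05 by edgeR. The median was 0.05 for 9 platelet rows (1 higher past it) and -0.20 for 2 lymphocyte rows. It was -0.68 for the liver row and -0.03 for 8 muscle rows, and 0 lymphocyte, liver or muscle rows were past it. The part of red cell RNA in the values of ssc-miR-16 was not tested. In plasma, fewer cells releasing a miRNA and less of it released per cell cannot be told apart.

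ssc-miR-15a, the hairpin partner of 1 of the 2 MIR16 genes, followed ssc-miR-16 in part. Its pre-TBI libraries ran from 7.58 to 9.16 log2 CPM (median 8.36) and its Early libraries from 7.06 to 9.07 (median 7.80). At Mid it was 7.79 and 7.86 in minipig 1 and 7.42 and 7.29 in minipig 2. The 2 Mid libraries of minipig 2 and 3 of the 10 Early libraries were below every pre-TBI library.

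At 17d ssc-miR-15a stood at 7.63 in minipig 1 (4 counts) and 10.15 in minipig 2 (72 counts), and at LR at 7.70 and 8.64. The 17d library of minipig 2 held the highest level of all 24, at 0.113% of its counts (95% exact binomial interval 0.0888% to 0.143%, counting error only). The log2 fold changes were -0.20 (SE 0.36) at Early, -0.85 (SE 0.50) at Mid, 1.06 (SE 0.56) at Late, and for LR -0.18 (SE 0.57), with adjusted p of 0.770, 0.824, 0.255 and 0.904 by edgeR. The Late value rests on minipig 2, without which it was -0.90. The correlation of ssc-miR-15a with ssc-miR-16 was 0.56 (Spearman 0.65), and ssc-miR-16 was the 17th row most like it of 410. The rows most like it were ssc-miR-30e-5p at 0.90 and ssc-let-7g at 0.81. With ssc-miR-451 the correlation of ssc-miR-15a was 0.36 (Spearman 0.51). It was 0.72 without the 2 libraries farthest from the median of ssc-miR-15a.

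ssc-miR-15b, the partner of the other MIR16 gene, had its highest phase mean at Late. Pre-TBI libraries ran from 6.64 to 8.24 log2 CPM (median 7.05) and Early libraries from 6.59 to 7.83 (median 7.25). At Mid the levels were 7.44 and 6.97 in minipig 1 and 7.21 and 6.11 in minipig 2. At Late they were 8.77 in minipig 1 (9 counts) and 7.93 in minipig 2 (15 counts), and at LR 6.85 (36 counts) and 6.53 (61 counts). Of the Late libraries only that of minipig 1 was above every pre-TBI library.

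Against pre-TBI the log2 fold change of ssc-miR-15b was 0.10 (SE 0.26) at Early, -0.26 (SE 0.38) at Mid, 1.19 (SE 0.45) at Late and -0.52 (SE 0.41) at LR. At Late the unadjusted p was 0.0155 and the adjusted p 0.134 by edgeR. Both animals were higher at Late than their own pre-TBI mean, by 1.33 in minipig 1 and 0.44 in minipig 2. Under 7 of 18 alternatives the Late value was not past the unadjusted threshold. Without minipig 1 it was 0.79 with an unadjusted p of 0.235, and without minipig 3 it was 0.83 with one of 0.0947. With scaling by library size only it was 0.86 with one of 0.0709, with C7 alone as the baseline 0.77 with one of 0.151, with only the 2 groups in the fit 1.09 with one of 0.0575, and with thinned counts 0.84 with one of 0.166. With counts thinned to the smallest library and a term for the minipig it was 0.48 with an unadjusted p of 0.393. The levels of ssc-miR-15b had a correlation of -0.54 with the log2 library total, and the Late libraries were among the shallowest. The part of depth in the Late value was not tested beyond the thinned fits.

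From Late to LR ssc-miR-15b was the only member past an unadjusted p under 0.05. Its log2 fold change was -1.71 (SE 0.54), with an unadjusted p of 0.00439 and an adjusted p of 0.0895 by edgeR's quasi-likelihood test. The share of rows past the unadjusted threshold in that comparison was 32.1%, and past the adjusted threshold 0.730%. With the minipig as a replicate block the value was -1.70 with an adjusted p of 0.0486, and by DESeq2's Wald test it was -1.63 with an adjusted p of 0.0361, so the call depended on the fit. It was lost at the unadjusted level without minipig 1, where the value was -1.41 with an unadjusted p of 0.0991. At matched depth it was lost as well: thinned counts gave -1.26 with an unadjusted p of 0.108, and thinned counts with the block gave -1.25 with one of 0.0784 (adjusted 0.217). The other members gave 1.01 (SE 1.15) for ssc-miR-16, -0.67 (SE 1.03) for ssc-miR-497, -0.93 (SE 0.53) for ssc-miR-195 and -1.25 (SE 0.71) for ssc-miR-15a, and the last of these was 0.20 without minipig 2. The value of ssc-miR-16 was 0.030 without minipig 1 and 2.76 without minipig 2.

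The ratio of ssc-miR-16 to ssc-miR-15b spanned a wide range and had its lowest phase mean at Late. The log2 ratio of ssc-miR-16 to ssc-miR-15b within a library, which no scaling can change, averaged 4.05 ± 1.82 (SD, n = 6) pre-TBI, 4.59 ± 1.12 (n = 10) at Early, 2.66 ± 0.79 (n = 4) at Mid, 1.36 ± 1.92 (n = 2) at Late and 4.39 ± 0.29 (n = 2) at LR. It was 0 at 17d in minipig 1, where both rows held 9 counts, and 6.35 at 0d in minipig 3, where they held 3958 and 48. The pre-TBI mean also holds minipig 3, which has no later library than 1d, and the other two animals differed. In minipig 1 the mean was 2.27 pre-TBI, 2.54 at Mid and 4.60 at LR, while in minipig 2 it was 4.93, 2.78 and 4.19, so at Mid and at LR minipig 1 lay above its own pre-TBI mean and minipig 2 below. At Late both lay below it. The ratio to ssc-miR-15a averaged 2.89 ± 1.25 pre-TBI, 1.99 ± 0.46 at Mid, 0.78 ± 0.42 at Late and 2.85 ± 1.22 at LR, and by animal it was 1.68, 1.92, 1.08 and 3.71 in minipig 1 and 3.67, 2.06, 0.49 and 1.99 in minipig 2. C7 of minipig 1 gave 0.82 and 0.62 for the ratios to ssc-miR-15b and ssc-miR-15a, so values as low as those at Mid were present before TBI. C1 of minipig 1 gave 3.72 and 2.75, so for both ratios its Mid mean lay above its C7 and below its C1.

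**Figure D4:**
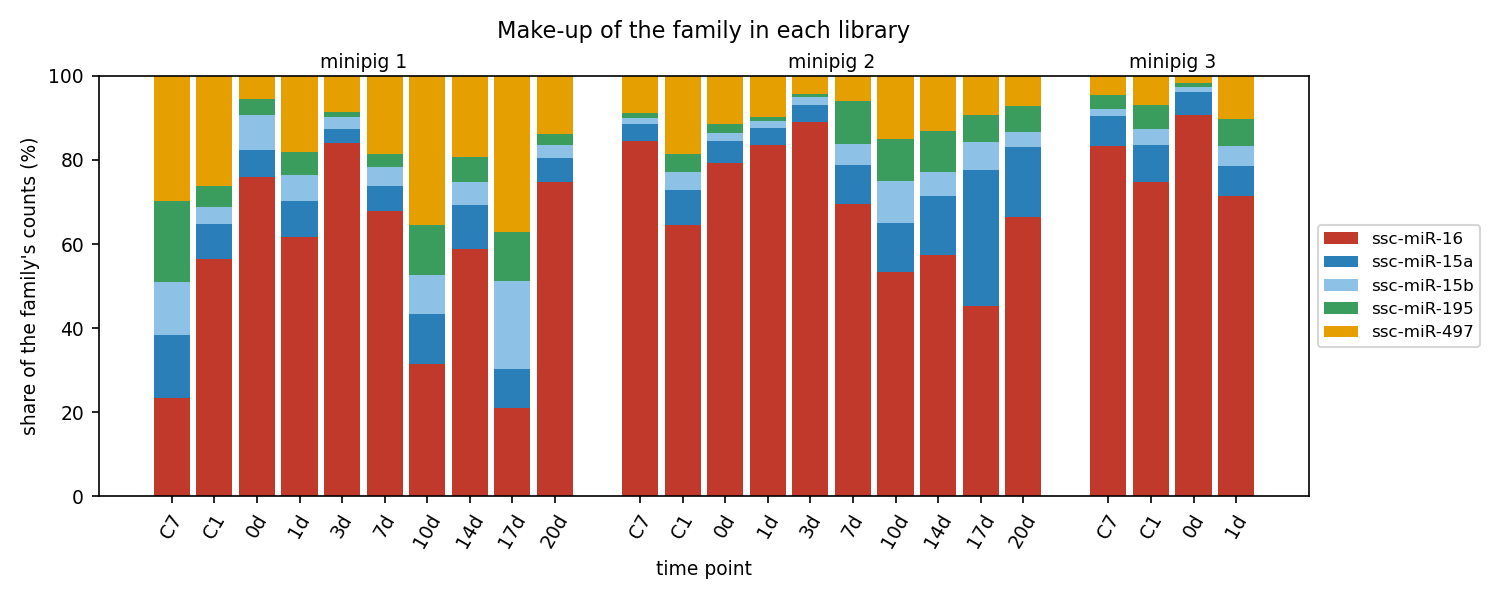
Share of the family's counts (%, stacked bars that add to 100) taken by each member in each kept library, by minipig and time point. ssc-miR-16 takes 20.9% at 17d in minipig 1 and 90.7% at 0d in minipig 3, and 23.4% at C7 in minipig 1.

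The make-up of the family differed between libraries as well. ssc-miR-16 made up 64.5% ± 22.8 (SD, n = 6) of the family's counts pre-TBI, 77.3% ± 9.64 (n = 10) at Early, 50.3% ± 12.7 (n = 4) at Mid, 33.1% ± 17.2 (n = 2) at Late and 70.6% ± 6.01 (n = 2) at LR. By animal the mean share pre-TBI, at Mid, at Late and at LR was 40.0%, 45.2%, 20.9% and 74.9% in minipig 1 and 74.6%, 55.4%, 45.3% and 66.4% in minipig 2, so against pre-TBI the animals went opposite ways at Mid and at LR and both were lower at Late. The direction of minipig 1 at Mid rests on C7: its share was 23.4% at C7 (47 family counts) and 56.6% at C1, and its Mid mean lay between them. Minipig 3, at 79.0% pre-TBI, has no Mid, Late or LR library. At 17d the rest was held by different members in the 2 animals, with ssc-miR-497 at 37.2% in minipig 1 and ssc-miR-15a at 32.3% in minipig 2.

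ssc-miR-195 had its lowest phase mean at Early, 6.89 ± 0.41 log2 CPM (SD, n = 10), beside 7.56 ± 0.67 (n = 6) pre-TBI, and within the spread of that at LR, 6.93 ± 0.46 (n = 2). Its pre-TBI libraries ran from 6.86 to 8.81 log2 CPM (median 7.42), and its Early libraries from 6.38 to 7.67 (median 6.88). Of the 10 Early libraries 5 lay below every pre-TBI library and the other 5 inside the range. The log2 fold change at Early was -0.62 (SE 0.25), with an unadjusted p of 0.0213 and an adjusted p of 0.190 by edgeR. All 3 minipigs were lower than their own pre-TBI mean, by -1.16, -0.29 and -0.61 log2 CPM. With C1 alone as the baseline the value was -0.25 with an unadjusted p of 0.376. Without minipig 1 it was -0.47 with one of 0.0800, and without minipig 3 it was -0.66 with one of 0.0734. Thinned counts gave -0.86 with one of 0.0863, and thinned counts with the replicate block gave -0.95 with one of 0.0731. The levels of ssc-miR-195 had a correlation of -0.57 with the log2 library total, and of -0.28 without the 2 libraries farthest from the median of ssc-miR-195.

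The lowest time point of ssc-miR-195 was 3d, at 6.45 in minipig 1 and 6.51 in minipig 2, and the highest was C7, at 8.81, 7.46 and 7.66 in minipigs 1 to 3. At Mid the levels were 7.79 and 7.09 in minipig 1 and 7.21 and 6.82 in minipig 2. At Late they were 7.94 (5 counts) and 7.83 (14 counts), and at LR 6.61 and 7.26. The log2 fold changes at Mid, Late and LR were -0.33 (SE 0.35), 0.35 (SE 0.46) and -0.58 (SE 0.39). The Late value was -0.60 with thinned counts and -0.17 with C7 alone as the baseline, so its direction was not stable.

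ssc-miR-497, annotated over the same long non-coding gene as ssc-miR-195, did not take 1 course in the 3 animals. Its pre-TBI libraries ran from 7.52 to 10.26 log2 CPM (median 9.33) and its Early libraries from 6.84 to 10.20 (median 8.88). At Mid the levels were 9.34 and 8.73 in minipig 1 and 7.77 and 7.21 in minipig 2. At Late they were 9.58 and 8.40 and at LR 8.96 and 7.44. Minipig 1 was at 6.84 at 0d, the lowest level of all 24 libraries, and between 8.73 and 9.58 in its others. Minipig 2 went from 10.26 at C7 to 6.96 at 7d and was at or below 8.40 from 7d on, and minipig 3 lay between 7.51 and 8.04 in its 4 libraries. Spread between animals was not tested against spread between phases.

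The log2 fold changes of ssc-miR-497 were -0.35 (SE 0.50) at Early, -0.78 (SE 0.67) at Mid, -0.19 (SE 0.87) at Late, and for LR -0.87 (SE 0.83), with adjusted p of 0.693, 0.970, 0.936 and 0.682 by edgeR. In minipig 2 the Mid mean was lower than its own pre-TBI mean by -2.36 and the LR mean by -2.41, and in minipig 1 by -0.29 and -0.37. Without minipig 2 the Mid value was 0.44. The correlation between ssc-miR-195 and ssc-miR-497 was 0.23 over the 24 libraries, and ssc-miR-497 was the 159th row most like ssc-miR-195 of 410. The row most like ssc-miR-497 was ssc-miR-219b-3p at 0.96, and the next was ssc-miR-499-5p at 0.76.

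Likeness between members was uneven across these libraries. The correlation of ssc-miR-16 was -0.02 with ssc-miR-15b, -0.43 with ssc-miR-195 and 0.28 with ssc-miR-497, and ssc-miR-15b ranked 220th and ssc-miR-195 353rd among the 410 rows by likeness to it. The Pearson correlation of ssc-miR-15b with ssc-miR-497 was 0.59 (Spearman 0.62) and that of ssc-miR-15a with ssc-miR-16 was 0.56 (Spearman 0.65), so which pair came first depended on the measure. All of these are over the same 24 libraries of 3 animals. The other rows most like ssc-miR-16 were ssc-miR-22-3p (0.86), ssc-miR-144 (0.86), ssc-miR-21 (0.82) and ssc-miR-142-5p (0.78). Those most like ssc-miR-15b were led by ssc-miR-301 (0.80) and ssc-miR-206 (0.78), and those most like ssc-miR-195 by ssc-miR-9797-3p (0.73) and ssc-miR-542-3p (0.73).

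A joint test asked whether a member varied over the 8 later time points at all, each set against the mean of C7 and C1. By edgeR's quasi-likelihood test the p was 0.0462 (adjusted 0.186) for ssc-miR-16, 0.0692 (adjusted 0.219) for ssc-miR-15b, 0.0887 (adjusted 0.248) for ssc-miR-195, 0.226 (adjusted 0.427) for ssc-miR-15a and 0.918 (adjusted 0.954) for ssc-miR-497. Thus 1 of 5 members was past the unadjusted threshold and 0 past the adjusted one, beside 26.0% and 6.81% of all rows. Which member was past it changed once a replicate block for the minipig was added: it was then ssc-miR-15b, with a p of 0.0241 (adjusted 0.117), and not ssc-miR-16, with a p of 0.0520 (adjusted 0.170). The p of ssc-miR-16 stayed under 0.05 in 1 of 7 alternatives.

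C1 against C7 gives the change between a pair of draws before any irradiation. In the fit all 5 members were lower at C1, with log2 fold changes from -0.52 to -1.63 and a median of -0.76, beside -0.02 over all rows. By animal ssc-miR-16 was higher at C1 by 1.21 in minipig 1 and lower in minipigs 2 and 3. None of the 5 was past an unadjusted p under 0.05 by edgeR (0.730% of rows were, and 0% at the adjusted threshold), and the lowest p was 0.0591, for ssc-miR-195 (-0.76). That member was past it with RLE scaling, at -0.81 with an unadjusted p of 0.0457, and without minipig 2, at -1.18 with one of 0.0310. In the fit the 3 red cell rows were lower as well, by -1.21 to -1.95, although ssc-miR-451 was higher by 0.68 in minipig 1. The median of the members from C7 to C1, -0.76, was close to their median at Mid, -0.78.

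The use of miR-16 as a plasma reference can be read against its spread. The SD of its log2 CPM over the 24 libraries was 1.43, larger than that of 92.5% of rows, and 1.53 over the 6 pre-TBI libraries alone. That of ssc-miR-497 was 1.03, of ssc-miR-15a 0.77, of ssc-miR-15b 0.61 and of ssc-miR-195 0.56, beside a median of 0.68 over all rows. Of 11 other rows fixed as common plasma references, ssc-miR-103 had an SD of 0.55, ssc-miR-425-3p 0.50, ssc-miR-24-3p 0.61, ssc-miR-423-5p 0.63 and ssc-miR-423-3p 0.68. Those of ssc-let-7a, ssc-miR-191 and ssc-miR-484 were 1.13, 1.19 and 1.22. Every reference row had a smaller SD than ssc-miR-16, and ssc-miR-451 had a larger one, 1.53.

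**Figure D5:**
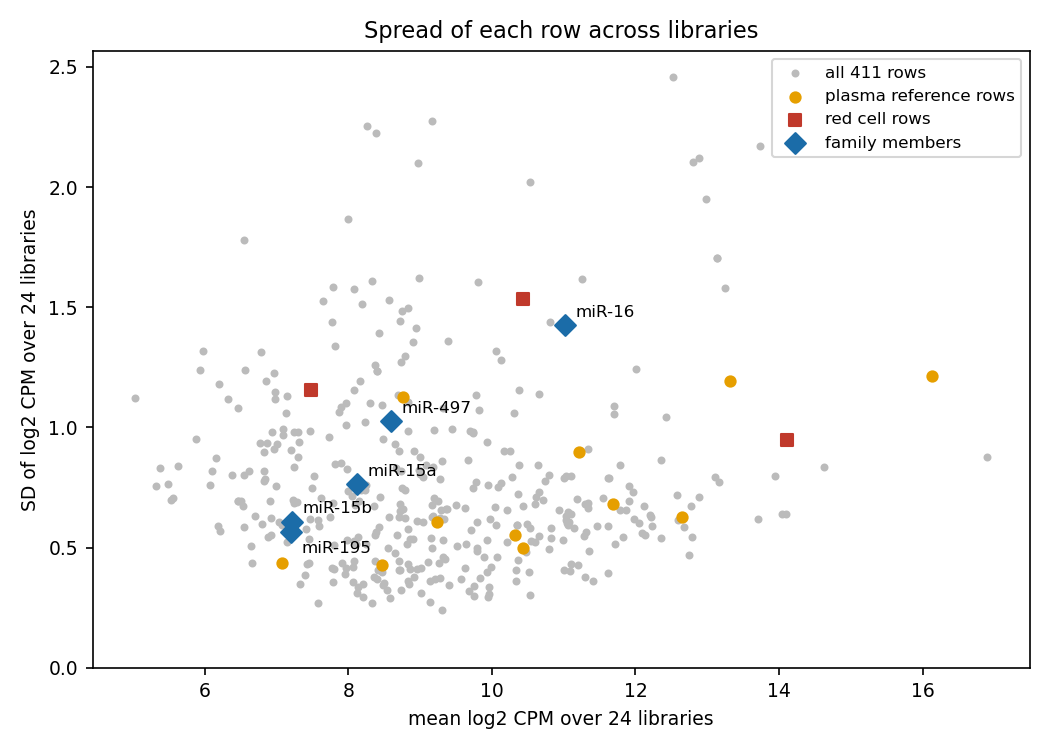
SD of log2 CPM over the 24 kept libraries (vertical axis) against mean log2 CPM (horizontal axis) for each row of the table, with the family members, the plasma reference rows and the red cell rows marked. ssc-miR-16 lies at an SD of 1.43, above every marked reference row, while ssc-miR-195 and ssc-miR-15b lie below the median of 0.68.

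The wider seed family gave no call after adjustment either. The rows of miR-424 and miR-503 come from another hairpin cluster, where the 5p strand of miR-424 carries the family's seed and its 3p strand does not. ssc-miR-424-5p was scarce, with 2 to 44 counts, and stood at 7.63 and 8.10 log2 CPM at Late in minipigs 1 and 2 beside 5.63 to 7.01 pre-TBI. Both Late libraries were above every pre-TBI library (10.9% of all rows did not overlap there), and the log2 fold change was 1.68 (SE 0.56) with an adjusted p of 0.0881 by edgeR. The 2 libraries held 4 and 17 counts. ssc-miR-424-3p went the other way at Late, at -1.30 (SE 0.55, adjusted p 0.176), and ssc-miR-503 was at -0.49 (SE 0.55). Of these 3 rows 1 was higher and 1 lower at Late at an unadjusted p under 0.05, beside 22.6% of all rows past it. In the other phases ssc-miR-424-3p was past it at Early (0.68, higher, 18.7% of all rows) and for LR (1.24, higher, 5.60%), and ssc-miR-503 at Mid (0.90, higher, 5.35%). Against its own pre-TBI mean ssc-miR-503 at Mid was at -0.063 in minipig 1 and 1.82 in minipig 2.

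Rows of other miRNA families known to restrain the cell cycle were taken as a fixed list of 10 rows. It held ssc-miR-34a, ssc-miR-34c and 8 rows of let-7, among them ssc-let-7d-3p, the opposite strand of ssc-let-7d-5p. At Late 3 of the 10 passed an adjusted p under 0.05 by edgeR, all higher, beside 4.38% of all rows. These were ssc-let-7f, ssc-let-7e and ssc-miR-34a, and Late is 1 library from each of 2 animals. The number of the 10 called higher was 0 with C7 alone as the baseline, with only the 2 groups in the fit and with thinned counts plus the replicate block, and 4 without minipig 1. Without minipig 2 it was 1, with 1 other row lower. At an unadjusted p under 0.05, 4 were higher and 2 lower (22.6% of all rows were past it), and the fold changes ran from -1.62 to 2.56 with a list median of 1.25 beside 0.08 over all rows and 0.35 over the 5 members. At Mid 0 passed the adjusted threshold and 3 were lower at an unadjusted p under 0.05 (5.35% of all rows were past it), with a median of -0.77 beside -0.78 over the members. Early and LR gave no row of the list past either threshold. This list overlaps no member and was chosen with earlier results of these data known.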

How the data were processed

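The authors built TruSeq small RNA libraries from plasma RNA, trimmed and filtered the reads with Cutadapt, aligned them with Bowtie (version 2.2.3.0 in the submitters' processing notes, which name it Bowtie2) to a pig assembly and to miRBase, and deposited 1 table of raw counts per ssc-miRNA and library, without normalization. Every column of the table was matched to a sample (0 were not).

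The counts were tested as deposited with edgeR 4.0.16 in R 4.3.3 (quasi-likelihood test, TMM scaling, CPM above 0.5 in at least 3 libraries, Benjamini-Hochberg over all rows, threshold 0.05) after libraries under 1000 counts were dropped. The 5 phases shared 1 fit without a term for the animal, and the joint test and C1 against C7 came from a fit of the 10 time points. DESeq2 1.42.0 was an alternative. Levels are log2 CPM with a prior count of 2, and ratios add 0.5 to each count. Of the tests, only the phase fit for Early against pre-TBI was run on simulated counts with known changes, drawn without an effect of the animal. PCR copies were not separated, so intervals cover counting error only.

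The rows named were every member, the rows of miR-424 and miR-503, the 5 rows most correlated with each member (the leading ones are printed), and fixed lists given by counts. The members and lists were chosen with earlier results of these data known. Libraries of 1 minipig are paired by the animal: after removal of phase means, 78 library pairs within an animal correlated at 0.169 on average, and 130 pairs between animals at -0.102. Libraries were separate draws, and no 2 libraries of a phase agreed within counting noise (smallest chi-square per degree of freedom 21.8 over 68 pairs).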

Additional observations from a re-analysis of the deposited data

How the results depend on the processing

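Depth, the number of animals and the choice of baseline all limit these results. Late and LR hold 1 library from each of 2 minipigs, and ssc-miR-15b and ssc-miR-195 hold at most 15 counts in each Mid and Late library. Over the member comparisons that have a direction, 433 of 460 values under the alternatives kept that direction and their side of the adjusted threshold. Running without the filter on low counts is not among them, since every row passed it and the fit was the same. The 18 alternatives counted for single comparisons above do include that run. With DESeq2 the Late to LR change of ssc-miR-15b passed the threshold at -1.63, and with the minipig as a replicate block at -1.70, and the block changed no other call of a member at the adjusted threshold.

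Directions that reversed were all of changes that were not called, and their cause was not tested. With upper-quartile scaling ssc-miR-497 at Late was 0.027. With the replicate block ssc-miR-15b at Early was -0.039. Thinned counts together with the block gave -0.47 for ssc-miR-15b at Early and -0.76 for ssc-miR-195 at Late. Thinned counts alone gave -0.29 for ssc-miR-15b at Early, 0.0022 for ssc-miR-15b at Mid, -0.60 for ssc-miR-195 at Late and 0.035 for ssc-miR-15a at LR. With C7 alone as the baseline ssc-miR-16 at Early was -0.30, ssc-miR-15b at Early -0.24 and ssc-miR-195 at Late -0.17. With C1 alone ssc-miR-15a at Early was 0.31, ssc-miR-195 at Mid 0.043, ssc-miR-497 at Late 0.12, ssc-miR-16 at LR 0.19 and ssc-miR-15a at LR 0.33. Leaving out 1 minipig in turn gave -0.052 to 0.23 for ssc-miR-15b at Early, -0.59 to 0.30 for ssc-miR-15b and -1.81 to 0.44 for ssc-miR-497 at Mid, -0.90 to 1.56 for ssc-miR-15a and -0.83 to 0.66 for ssc-miR-497 at Late, -1.70 to 0.084 for ssc-miR-16, -1.75 to 0.16 for ssc-miR-497 and -0.70 to 0.088 for ssc-miR-15a at LR, and -1.47 to 0.20 for ssc-miR-15a from Late to LR.

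Leaving out the C7 library of minipig 1, added once the data had been seen, changed no direction and no call of a member in the fits, which pool the animals. A filter of at least 10 counts in every library removed all 5 members and gave no value. Where a group kept 1 library, that library was assumed to vary like the other groups. Over all rows the number past the adjusted threshold moved with the fit: from 0 to 38 at Early (38 with only the 2 groups compared, 33 by DESeq2), 0 to 77 at Late where the fit reported gave 18 (77 without minipig 2), 0 to 6 at LR, 0 to 66 from Late to LR where it gave 3 (23 with the replicate block), and 0 to 34 in the joint test where it gave 28 (0 without minipig 2). At Mid it was 0 under every alternative run. The position of ssc-miR-15b by SD went from 153 to 93 with library size only or thinned counts.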

Other observations

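The pattern of ssc-miR-497 lay close to that of ssc-miR-219b-3p, a row with no link to the family by number. In minipig 1 the counts of ssc-miR-497 and ssc-miR-219b-3p were 14 and 19 at C7, 17 and 55 at 0d, 153 and 213 at 3d and 164 and 238 at 20d. In minipig 2 they were 283 and 365 at C7, 516 and 649 at 1d, 25 and 78 at 7d and 120 and 302 at 20d. The next most similar row had a correlation of 0.76 against 0.96, over the same 24 libraries. This pair was picked out after its values were seen.

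The 17d library of minipig 2 combined the lowest level of ssc-miR-451 among the 24 libraries, 7.62 log2 CPM, with the highest of ssc-miR-15a, 10.15, and the highest of ssc-miR-424-5p, 8.10. These were 12, 72 and 17 counts in a library of 63441. In the 17d library of minipig 1 ssc-miR-15b was at its highest, 8.77, ssc-miR-16 at its lowest, also 8.77, and ssc-miR-424-3p at its lowest, 8.41. Those levels rest on 9, 9 and 7 counts in a library of 29159. No library stood outside its phase by Dixon's criterion for any member in the 15 groups of 4 to 10 libraries. Late and LR, with 2 libraries each, were too small for that criterion, so the 17d libraries were not tested by it.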
